A study of Mus musculus with 22 samples.

Results

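The genes described here move calcium out of the cytosol or release it from internal stores. The set was fixed by symbol as Atp2a2, Atp2a3, Atp2b1, Atp2b2, Atp2b3, Atp2b4, Itpr1, Itpr2, Ryr2 and Ryr3, 10 of the 55385 genes in the deposited tables, and all 10 passed the filter on low counts that left 20524 genes for testing. They were measured in ribosome-bound mRNA of 6 cell types of the mouse brain. In the RiboTag method, Cre recombinase switches on an HA-tagged form of the ribosomal protein RPL22 in the cells of interest, and mRNA is recovered with the tagged ribosomes. A level is therefore the share of a gene in ribosome-bound mRNA, given as TPM (a length-corrected share of all transcripts, scaled to the same total in every library and summed over the transcripts of a gene), and fewer cells of a type and less RNA per cell cannot be told apart.

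All animals were 6-week-old mice of both sexes that carried Rpl22 fl/+ and a Cre allele, so no group lacked the tag or the Cre. Dentate gyrus granule cells (hippocampus) and layer V cortical neurons (cortex) were both obtained with Rbp4-cre, cerebellar granule cells (cerebellum) with Gabra6-cre, and inhibitory interneurons (hippocampus) with Dlx6a-cre, with hippocampi of 2 mice pooled per library. Astrocytes and microglia came from cortex by tamoxifen-inducible Cre alleles, Aldh1l1-cre/ERT2 and Tmem119-cre/ERT2 (labelled Aldh1-cre and Tmem119-cre), induced on 5 consecutive days from 3 weeks of age. Each cell type had 3 biological replicates. Of the 22 libraries, 18 entered the comparisons, 1 per replicate, with the batch 1 library where a replicate had been sequenced in both batches. Of these 18, all inhibitory interneuron and microglial libraries came from batch 2 and the rest from batch 1.

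The libraries held between 38270477 and 97992957 estimated counts. Of 24 marker genes of the 6 cell types, 22 were higher in every library of their own cell type than in any other library. The exceptions were the layer V markers Bcl11b and Etv1, which reached 171 TPM and 745 TPM in other cell types against at most 35.6 TPM and 89.4 TPM in layer V cortical neurons. The batch 2 library of layer V replicate 1 was labelled male, but the Y-linked gene Ddx3y was at 0.0340 TPM there, against 27.0 TPM in layer V replicate 3, so it went against its label; it entered only the alternatives. RNA of other cells was present. The summed level of 3 neuronal markers (Rbfox3, Snap25, Syt1) was 638 to 879 TPM in the astrocyte libraries and 314 to 352 TPM in the microglial libraries, against 6586 to 6757 TPM in layer V cortical neurons, and none of the 3 was at 0. The summed level of 4 oligodendrocyte markers was 2435 to 2614 TPM in inhibitory interneurons, the highest of the 6 cell types. The part of this RNA in the levels below was not tested.

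Cytosolic calcium is kept low by 2 families of ATP-driven pumps. The SERCA pumps (Atp2a genes) return calcium to the endoplasmic reticulum and the PMCA pumps (Atp2b genes) export it across the plasma membrane. Calcium leaves the reticulum through inositol trisphosphate receptors (Itpr genes), which open when receptor signalling makes inositol trisphosphate, and through ryanodine receptors (Ryr genes), which open on calcium itself. In neurons these proteins shape the calcium signals of dendrites and terminals, whereas in glia release through inositol trisphosphate receptors follows transmitter and purine receptors.

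Several of the pumps are made in forms that differ at the end of the protein, and the sequences that set those forms are shown first, because the share of each form differed between the cell types described below. In all 4 PMCA genes an alternative exon near the end of the coding sequence (splice site C) gives a shorter calmodulin-binding tail, called form a, when it is kept, and a longer one, form b, when it is skipped. The 4 exons lie at chr10:99019278-99019431 on the + strand (Atp2b1, 154 bases), chr6:113755217-113755388 on the - strand (Atp2b2, 172 bases), chrX:73559864-73560017 on the + strand (Atp2b3, 154 bases) and chr1:133711632-133711822 on the - strand (Atp2b4, 191 bases) of GRCm38, with exon positions and bases taken from GENCODE M21. They are printed 5′ to 3′, with capitals for the longest run of bases that an exon shares with another of the 4.
Atp2b1 exon: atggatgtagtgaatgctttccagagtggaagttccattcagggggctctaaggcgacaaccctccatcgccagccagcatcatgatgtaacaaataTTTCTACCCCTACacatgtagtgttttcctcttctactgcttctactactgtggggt
Atp2b2 exon: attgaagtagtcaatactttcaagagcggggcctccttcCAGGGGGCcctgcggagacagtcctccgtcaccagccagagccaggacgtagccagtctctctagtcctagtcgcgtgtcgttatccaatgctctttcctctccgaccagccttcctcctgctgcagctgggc
Atp2b3 exon: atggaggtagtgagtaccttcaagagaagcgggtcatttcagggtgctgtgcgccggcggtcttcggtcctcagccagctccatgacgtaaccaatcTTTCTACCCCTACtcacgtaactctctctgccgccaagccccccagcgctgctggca
Atp2b4 exon: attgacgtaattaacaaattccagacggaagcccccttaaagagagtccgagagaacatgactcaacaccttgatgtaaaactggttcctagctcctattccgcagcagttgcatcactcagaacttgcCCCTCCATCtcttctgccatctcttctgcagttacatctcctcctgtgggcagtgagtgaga

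None of the 4 lengths is a multiple of 3, and in Atp2b4 the annotated stop codon lies inside the exon. Pairwise identity over a global alignment was highest between the Atp2b2 and Atp2b3 exons, at 66.9%, and lowest between those of Atp2b3 and Atp2b4, at 54.0%. The run of 13 bases in capitals was shared by Atp2b1 and Atp2b3 at the same position, bases 98 to 110 of both exons. The annotated coding length was shorter with the exon than without it, at 3462 against 3594 bases in Atp2b2 (Atp2b2-206 and Atp2b2-203), 3519 against 3660 bases in Atp2b3 (Atp2b3-203 and Atp2b3-202) and 3498 against 3615 bases in Atp2b4 (Atp2b4-201 and Atp2b4-207). In Atp2b2 the exon is followed by another of 127 bases in Atp2b2-206, the annotated transcript that keeps it. Atp2b2-206 is annotated as a target of nonsense-mediated decay. The Atp2b1 transcripts that keep the exon, Atp2b1-210 with all 154 bases and Atp2b1-209 with the first 87, are annotated without their 5′ part.

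The housekeeping SERCA gene, Atp2a2, has a comparable choice at its end. SERCA2b, the ubiquitous form, is encoded by Atp2a2-201 and Atp2a2-203, and SERCA2a, the form typical of heart and slow muscle, by Atp2a2-202. The coding bases found in only 1 of these forms are shown with the stop codon in capitals, those of SERCA2b from chr5:122457151-122457302 and those of SERCA2a from chr5:122454291-122454304, both on the - strand of GRCm38.
SERCA2b tail: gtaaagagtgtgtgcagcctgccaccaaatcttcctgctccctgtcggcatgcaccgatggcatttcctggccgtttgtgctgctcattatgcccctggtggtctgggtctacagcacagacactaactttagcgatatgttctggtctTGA
SERCA2a tail: caatactggagTAA

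SERCA2b thus ended in 152 coding bases of its own and SERCA2a in 14, after 2983 coding bases that both share. Atp2a2-203 has the same tail as Atp2a2-201 but is longer, at 5674 against 4486 bases, and is annotated as a target of nonsense-mediated decay.

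Atp2a2 (chr5:122453513-122502225, - strand) was highest in cerebellar granule cells and lowest in microglia. Its level was 512, 513 and 538 TPM in cerebellar granule cells, 349, 360 and 322 TPM in inhibitory interneurons, 232, 254 and 273 TPM in dentate gyrus granule cells and 248, 248 and 259 TPM in layer V cortical neurons. It was 233, 214 and 216 TPM in astrocytes and 87.4, 90.3 and 88.5 TPM in microglia. Every cerebellar granule cell library was above every other library, and every microglial library below. Only dentate gyrus granule cells and layer V cortical neurons overlapped among neighbours in this order; on counts layer V cortical neurons were the higher of these, by 0.27 on the log2 scale (edgeR adjusted p = 0.00033). Against the mean of the other 5 cell types, Atp2a2 was higher in cerebellar granule cells (log2 fold change 1.28 ± 0.04 SE, adjusted p = 3.5e-16) and lower in microglia (-1.74 ± 0.05 SE, adjusted p = 6.1e-17). All these values include Atp2a2-203. It held 91.0% of the level in cerebellar granule cells and 97.6% in layer V cortical neurons, but 41.9% in astrocytes and 50.2% in microglia. This order therefore does not hold for the transcripts annotated as protein coding. Over those, the log2 ratio of cerebellar granule cells over inhibitory interneurons was 0.21.

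Atp2a3, which encodes SERCA3, a pump of low calcium affinity found in blood and endothelial cells, was the scarce member of the family and went the other way (chr11:72961169-72993044, + strand). It was at 7.19, 6.16 and 6.41 TPM in microglia, 2.58, 1.81 and 2.21 TPM in cerebellar granule cells and 1.65, 1.49 and 1.17 TPM in astrocytes, and at or below 0.835 TPM in every library of the other 3 cell types. Microglia did not overlap any other cell type, and their difference from the mean of the others was 3.06 ± 0.09 (SE, log2 fold change, adjusted p = 6.2e-17). Cerebellar granule cells and astrocytes, next in order, did not differ beyond their spread on counts (adjusted p = 0.19). The microglial libraries also had the highest summed level of 3 endothelial markers, 129 to 195 TPM against at most 31.4 TPM elsewhere; their part in the Atp2a3 level was not tested. Atp2a2 held 93.1% of the summed SERCA level in microglia and at least 99.4% in each of the other cell types. The remaining SERCA gene, Atp2a1, the SERCA1 of fast muscle, was at most 1.12 TPM in any library.

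The 4 PMCA genes ranked the cell types in different ways. Atp2b1 (chr10:98914406-99026143, + strand), the ubiquitous PMCA1, was at 589, 641 and 657 TPM in dentate gyrus granule cells, 395, 406 and 422 TPM in layer V cortical neurons and 285, 290 and 303 TPM in cerebellar granule cells. It was at 131, 147 and 167 TPM in inhibitory interneurons, 118, 127 and 129 TPM in microglia and 129, 113 and 103 TPM in astrocytes. The 3 excitatory cell types were separate from each other and from the rest, whereas inhibitory interneurons lay close to the glia and were not told apart from microglia on counts (adjusted p = 0.20), nor microglia from astrocytes (adjusted p = 0.75). Atp2b1 thus stood out in dentate gyrus granule cells (log2 fold change against the mean of the other 5, 1.54 ± 0.03 SE, adjusted p = 2.8e-18) and was lower in inhibitory interneurons (-1.15 ± 0.04 SE, adjusted p = 5.9e-15).

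Atp2b2 (chr6:113743831-114042613, - strand), the fast PMCA2 of Purkinje cells, granule cells and hair cells, was highest in cerebellar granule cells, at 292, 274 and 303 TPM. It was at 176, 188 and 188 TPM in dentate gyrus granule cells, 166, 155 and 161 TPM in layer V cortical neurons and 148, 148 and 138 TPM in inhibitory interneurons. It fell to 59.5, 53.2 and 51.0 TPM in astrocytes and to 19.4, 21.95 and 23.0 TPM in microglia. No 2 neighbours in this order overlapped on TPM, but the order of dentate gyrus granule cells and layer V cortical neurons was the opposite on counts (log2 fold change -0.16 ± 0.06 SE, adjusted p = 0.026).

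Atp2b3 (chrX:73503086-73571005, + strand), PMCA3, a pump largely limited to neurons, spanned the widest range of the PMCA genes. It was at 253, 248 and 258 TPM in cerebellar granule cells, 96.8, 102 and 95.9 TPM in dentate gyrus granule cells, 56.7, 58.7 and 54.8 TPM in inhibitory interneurons and 22.3, 19.9 and 23.0 TPM in layer V cortical neurons. Astrocytes had 7.84, 6.33 and 5.68 TPM and microglia 3.18, 3.39 and 3.86 TPM. The 6 cell types did not overlap anywhere, and every neighbouring pair differed on counts (adjusted p from 2.1e-09 down to 1.9e-13). Cerebellar granule cells were above the mean of the other 5 (log2 fold change 3.63 ± 0.05 SE, adjusted p = 1.2e-21). This is 12.4-fold, with the mean of the other 5 taken on the log2 scale of counts and not on TPM.

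Atp2b4 (chr1:133699457-133801041, - strand), PMCA4, had levels of 81.8, 95.1 and 80.6 TPM in cerebellar granule cells, 71.2, 79.6 and 70.6 TPM in dentate gyrus granule cells and 64.5, 59.3 and 68.6 TPM in layer V cortical neurons. It was at 31.0, 33.2 and 12.7 TPM in inhibitory interneurons, 22.3, 21.1 and 20.7 TPM in astrocytes and 7.997, 11.8 and 8.94 TPM in microglia. The first place of cerebellar granule cells rested on a single-exon transcript model of 243 bases. It held 51.8%, 59.4% and 50.6% of the TPM there, up to 32.2% in microglia, up to 11.2% in inhibitory interneurons and none in the other cell types, while it took at most 1.65% of the counts of the gene. Without it cerebellar granule cells were at 39.4, 38.6 and 39.9 TPM, below all dentate gyrus and layer V libraries, and on counts they were lower than dentate gyrus granule cells by 0.82 on the log2 scale (SE 0.27, adjusted p = 0.014). Inhibitory interneuron replicate 3 had the low value of its group. Of the 4 markers of cerebellar granule cells, Zic1 moved with it, at 36.4, 29.8 and 2.16 TPM in the 3 interneuron libraries, whereas the other 3 (Gabra6, Neurod1 and Cbln3) summed to 1.51, 1.37 and 1.72 TPM and were not lower in replicate 3. This library was also the only one of the 3 from males alone. The part of either was not tested. Against the other 5 cell types the inhibitory interneurons were at -0.60 ± 0.22 (SE, log2 fold change, adjusted p = 0.026, under 2-fold), and at -0.21 without replicate 3 (adjusted p = 0.0011).

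Summed over the 4 genes, PMCA levels were 985 ± 44.8 TPM (SD, n = 3) in dentate gyrus granule cells, 921 ± 20.1 TPM in cerebellar granule cells, 654 ± 18.3 TPM in layer V cortical neurons and 375 ± 11.02 TPM in inhibitory interneurons. They were 198 ± 19.2 TPM in astrocytes and 159 ± 8.997 TPM in microglia. These sums include the single-exon transcript of Atp2b4 described above. They also include Atp2b1 transcripts of 1249 to 1588 bases. Atp2b1-201, of 7130 bases, held 34.2% to 50.9% of the Atp2b1 level on average per cell type. By mean TPM Atp2b1 was the leading PMCA gene in all 6 cell types, with 31.8% of the sum in cerebellar granule cells and 78.3% in microglia. In 2 of them its lead over Atp2b2 was within the spread of replicates. The means were 293 ± 9.33 and 289 ± 14.3 TPM in cerebellar granule cells, where Atp2b2 led in replicate 1, and 148 ± 17.9 and 144 ± 5.77 TPM in inhibitory interneurons, where it led in replicates 1 and 2 (SD, n = 3).

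**Figure D1:**
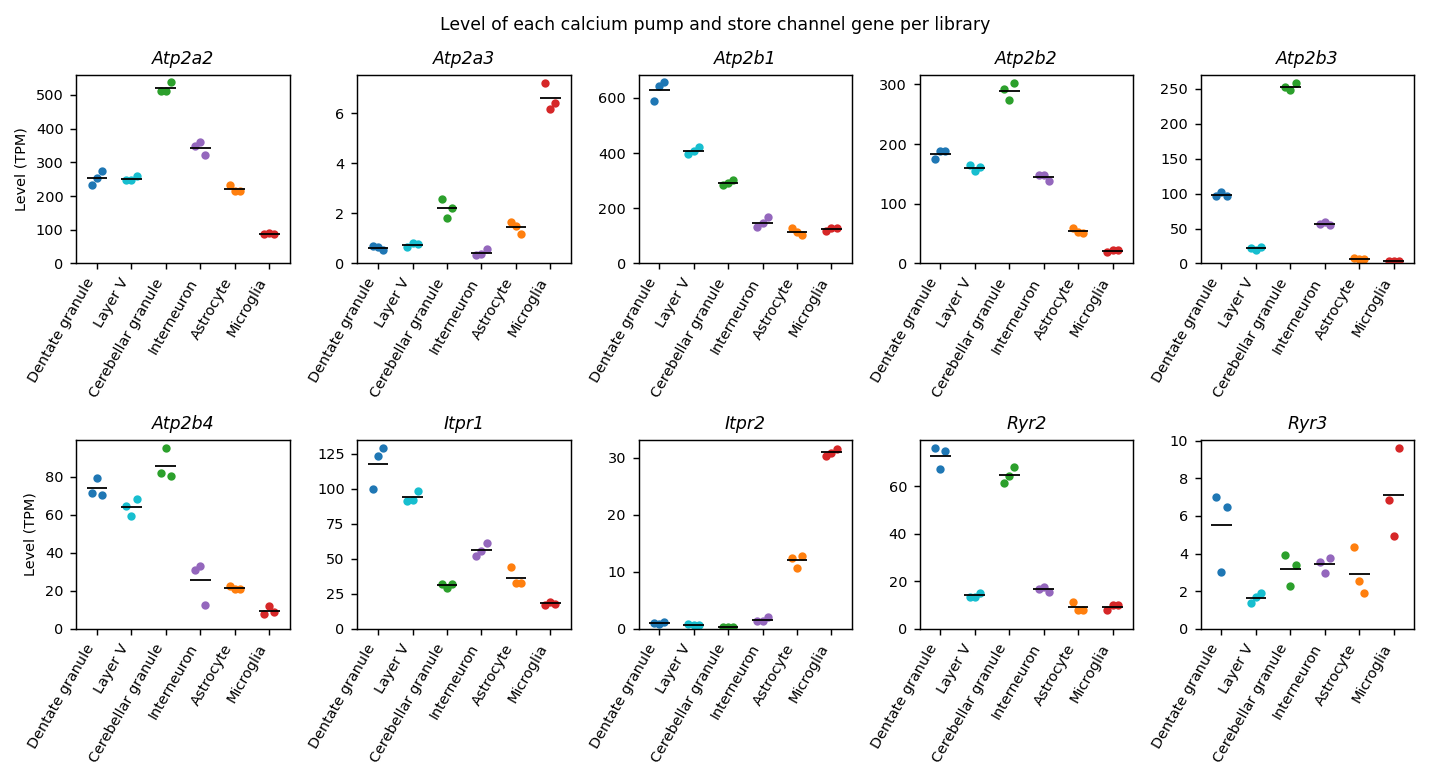
Level of each of the 10 genes in TPM (vertical axes, linear, starting at 0) by cell type. Each point is 1 of 3 libraries and each black line their mean; Atp2b3 in cerebellar granule cells lies at 248 to 258 TPM, whereas Itpr2 and Atp2a3 have their highest points in microglia.

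Of the 2 inositol trisphosphate receptor genes, Itpr2 was higher in every glial library than in any neuronal one, whereas Itpr1 was higher in neurons on average but lower in cerebellar granule cells than in astrocytes. Itpr1 (chr6:108213096-108551109, + strand), the main neuronal receptor and the receptor of Purkinje cells, was at 99.6, 123 and 129 TPM in dentate gyrus granule cells, 91.4, 92.2 and 98.6 TPM in layer V cortical neurons and 51.9, 55.3 and 61.5 TPM in inhibitory interneurons. It was at 43.7, 32.3 and 32.6 TPM in astrocytes, 32.0, 29.1 and 32.2 TPM in cerebellar granule cells and 17.1, 19.0 and 17.98 TPM in microglia. Cerebellar granule cells therefore had less Itpr1 than astrocytes on counts as well (log2 difference, astrocytes over cerebellar granule cells, 0.67 ± 0.08 SE, adjusted p = 3e-07). Dentate gyrus granule cells and layer V cortical neurons were not told apart on counts (adjusted p = 0.44), nor inhibitory interneurons and astrocytes (adjusted p = 0.59). Of 4 Purkinje cell markers, Pcp2 (13.5 to 16.2 TPM) and Ppp1r17 (3.17 to 3.67 TPM) were highest in the cerebellar granule cell libraries, with at most 0.206 and 1.66 TPM in the other libraries compared. Car8 was highest in astrocytes (51.1 to 57.2 TPM against 15.03 to 15.8 TPM in cerebellar granule cells) and Calb1 in dentate gyrus granule cells. The sum of the 4 was 50.97 to 56.8 TPM in cerebellar granule cells, lower than in every other cell type but microglia, and none of the 4 was at 0 there. The part of Purkinje cell RNA in the Itpr1 level of these libraries was not tested.

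Itpr2 (chr6:146108299-146502223, - strand), the receptor that carries most store release in astrocytes, was at 30.4, 30.9 and 31.6 TPM in microglia and 12.5, 10.7 and 12.8 TPM in astrocytes. In the neuronal libraries it lay between 0.243 TPM in a cerebellar granule cell library and 2.09 TPM in an inhibitory interneuron library. Every glial library was thus above every neuronal one, and microglia exceeded astrocytes by 0.87 ± 0.09 on the log2 scale of counts (SE, adjusted p = 7.5e-08). The difference from the mean of the other 5 cell types was 4.79 ± 0.06 in microglia and 3.74 ± 0.07 in astrocytes (SE, adjusted p = 9.3e-22 and 8.6e-20). In microglia Itpr2 made up 63.2% of the summed Itpr1 and Itpr2 level; in the other 5 cell types Itpr1 led, with 75.1% in astrocytes and 97.2% or more in neurons. Itpr3, the receptor of secretory cells, was at 4.15 to 5.74 TPM in microglia and 3.35 to 4.16 TPM in cerebellar granule cells, and at most 0.719 TPM in any other library.

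Among the ryanodine receptors, Ryr2 (chr13:11553102-12106945, - strand), the cardiac receptor and the main one of forebrain and cerebellar neurons, was high in both granule cell types. It was at 76.1, 67.3 and 74.8 TPM in dentate gyrus granule cells and 61.3, 64.4 and 68.2 TPM in cerebellar granule cells, which overlapped and were not told apart on counts (adjusted p = 0.11). It was at 16.6, 17.4 and 15.5 TPM in inhibitory interneurons, 13.5, 13.5 and 14.98 TPM in layer V cortical neurons, 7.88, 9.99 and 9.86 TPM in microglia and 11.3, 8.07 and 7.69 TPM in astrocytes. On counts the order of inhibitory interneurons and layer V cortical neurons was the opposite (log2 fold change -0.43 ± 0.10 SE, adjusted p = 0.0016), and microglia and astrocytes were not told apart (adjusted p = 0.55). Much of the TPM lay in transcripts shorter than Ryr2-201, of 16814 bases. Ryr2-207 (3086 bases) held 30.0% to 35.9% on average per cell type. Ryr2-204 (1106 bases) held 15.2% in layer V cortical neurons and 25.4% to 33.5% in the others. Dentate gyrus granule cells and cerebellar granule cells stood above the mean of the others by 1.97 ± 0.07 and 1.75 ± 0.07 (SE, log2 fold change, adjusted p = 3.2e-14 and 9.9e-14).

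Ryr3 (chr2:112631355-113217096, - strand), the broadly but weakly expressed receptor, had no clear order on TPM. It was at 6.85, 4.91 and 9.64 TPM in microglia, 7.01, 3.04 and 6.46 TPM in dentate gyrus granule cells and 3.55, 2.99 and 3.75 TPM in inhibitory interneurons. It was at 3.91, 2.28 and 3.38 TPM in cerebellar granule cells, 4.34, 2.55 and 1.91 TPM in astrocytes and 1.39, 1.67 and 1.89 TPM in layer V cortical neurons. Except for astrocytes and layer V cortical neurons, all neighbours in this order overlapped. On counts, microglia and dentate gyrus granule cells were not told apart (edgeR adjusted p = 0.064), whereas the other neighbours differed (adjusted p from 0.016 down to 1.9e-05). Cerebellar granule cells were above inhibitory interneurons on counts, against the order of TPM. In the fit of 18 libraries Ryr3 reached a 2-fold difference from the mean of the others in no cell type. It came close in dentate gyrus granule cells (log2 fold change 0.92) and layer V cortical neurons (-0.99). The former passed 2-fold without dentate gyrus granule cell replicate 2 (1.09) and within batch 2 (1.05), which held 1 library of that cell type. The latter passed it in 5 of the 18 fits that left out 1 library and with an offset for effective transcript length (-1.19). That offset also put microglia at 1.28. A retained-intron fragment of 612 bases, Ryr3-205, held 16.1% to 44.9% of its mean TPM per cell type, so that levels on TPM and on counts rest on different transcripts. The exons of Ryr3 overlap those of the antisense gene Aven, those of Itpr1 and Atp2a2 also overlap other annotated genes, and whether the counting used strand was not given in the sources used here. Ryr1, the receptor of skeletal muscle, had its highest level in dentate gyrus granule cells, from 2.27 TPM to 2.4996 TPM.

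Over the 50 pairs of neighbours in these 10 orders, 39 differed on counts at an adjusted p of at most 0.05, of which 34 lay in the order that TPM gave. Most of all genes tested passed that threshold between any pair of cell types. From dentate gyrus granule cells, the share was 63.2% against layer V cortical neurons, 73.7% against cerebellar granule cells, 63.6% against inhibitory interneurons, 74.0% against astrocytes and 79.6% against microglia. From layer V cortical neurons it was 75.9% against cerebellar granule cells, 60.4% against inhibitory interneurons, 77.1% against astrocytes and 83.1% against microglia. From cerebellar granule cells it was 75.1% against inhibitory interneurons, 82.6% against astrocytes and 85.4% against microglia, and from inhibitory interneurons 72.9% against astrocytes and 80.6% against microglia. Astrocytes and microglia differed in 75.8%. These shares are for fixed pairs of cell types, whereas neighbours are adjacent in a member's own order. The 39 of 50 therefore cannot be set directly against them. All 10 members differed by at least 2-fold somewhere among the 6 cell types (edgeR F test, adjusted p at most 0.05), as did 88.6% of all genes tested. The 4 replicates sequenced in both batches gave ratios of batch 2 over batch 1 between 0.902 and 1.08 for 8 of the members. Itpr2 ranged from 0.937 to 2.06, the latter in cerebellar granule cells, and Ryr3 from 0.787 to 1.33.

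Each cell type was then set against the mean of the other 5, with a call at an adjusted p of at most 0.05 and at least 2-fold. Microglia differed in 9 of the 10 members, against 49.6% of all genes tested. Atp2a3 and Itpr2 were higher, against 28.9% of all genes, and Atp2a2, all 4 PMCA genes, Itpr1 and Ryr2 lower, against 20.7%. The largest falls in microglia were those of Atp2b3 (-3.59 ± 0.07 SE) and Atp2b2 (-2.58 ± 0.06 SE), with adjusted p = 4.3e-19 and 1.2e-18. Dentate gyrus granule cells differed in 6 members, against 28.0% of all genes, with Atp2b1, Atp2b3, Atp2b4, Itpr1 and Ryr2 higher and Atp2a3 lower, against 14.0% of all genes in either direction. Cerebellar granule cells also differed in 6, against 48.8% of all genes, with Atp2a2, Atp2b2, Atp2b3 and Ryr2 higher (15.7% of all genes) and Itpr1 and Itpr2 lower (33.1% of all genes). Layer V cortical neurons differed in 4, against 33.4% of all genes, with Atp2b1, Atp2b4 and Itpr1 higher (17.2% of all genes) and Itpr2 lower (16.2%). Astrocytes differed in 4, against 34.7%, with Itpr2 higher (24.4% of all genes) and Atp2b1, Atp2b3 and Ryr2 lower (10.4%). Inhibitory interneurons differed in 3, against 26.1%, and all of these, Atp2a3, Atp2b1 and Itpr2, were lower (11.3% of all genes, with 14.8% higher). Dentate gyrus granule cells and cerebellar granule cells, which share the other 4 cell types in these comparisons, both had called rises of Atp2b3 (1.93 and 3.63) and Ryr2 (1.97 and 1.75), whereas Itpr1 was at 1.55 ± 0.06 in the former and -1.06 ± 0.07 in the latter (SE, log2 fold change). The last of these lay close to the 2-fold limit and fell below it within batch 2 (-0.82), under 3 other settings and in 10 of the 18 fits that left out 1 library. Some differences just under the limit passed it elsewhere. Atp2b2 in astrocytes (-0.99) did so within batch 2 (-1.17), under 3 other settings and in 16 of the 18 such fits, and Itpr2 in dentate gyrus granule cells (-0.98) within batch 2 (-1.08), under 8 other settings and in 5 such fits. Within batch 2 alone, the rises of Atp2b4 in dentate gyrus granule cells (1.18) and layer V cortical neurons (1.57) were not called. Each of these cell types had 1 library there.

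**Figure D2:**
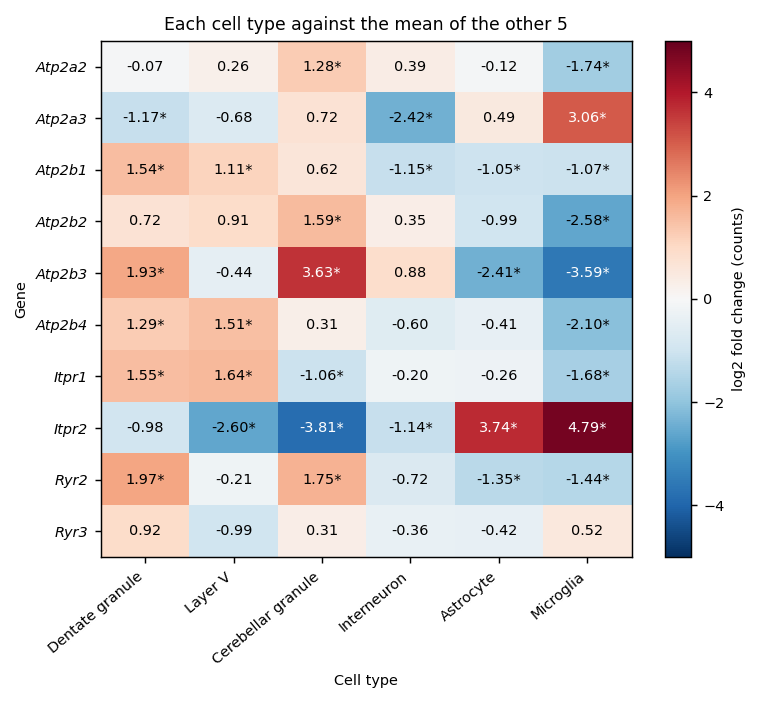
Log2 fold change on counts of each gene (rows) in each cell type against the mean of the other 5 (columns), coloured from -5 to 5, with * for an adjusted p of at most 0.05 and at least 2-fold. The microglial column has 9 calls, from -3.59 for Atp2b3 to 4.79 for Itpr2.

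Neurons and glia were compared as the mean of the 4 neuronal cell types minus the mean of the 2 glial ones. In neurons 7 of the 10 members were higher, against 15.9% of all genes tested, and 2 were lower, against 30.3%, which is 9 called members beside 46.3% of all genes. The higher ones were Atp2b3 (log2 fold change 3.75 ± 0.05 SE, adjusted p = 2.5e-21), Atp2b2 (2.23 ± 0.04 SE, adjusted p = 7.6e-20), Ryr2 (1.75), Atp2b4 (1.57), Atp2b1 (1.33), Itpr1 (1.21) and Atp2a2 (1.16). The lower ones were Itpr2 (-5.33 ± 0.06 SE, adjusted p = 3.1e-22) and Atp2a3 (-2.22 ± 0.08 SE, adjusted p = 3.4e-15). Ryr3 was at -0.07 ± 0.10 (SE, adjusted p = 0.54). Atp2b2, Atp2b3, Ryr2 and Itpr2 differed in the same direction between every neuronal and every glial cell type, but other members did not. In edgeR, inhibitory interneurons were not told apart from astrocytes for Atp2b1, Atp2b4 or Itpr1 (adjusted p = 0.12, 0.63 and 0.59). Cerebellar granule cells were not told apart from astrocytes for Atp2b4 or Atp2a3 (adjusted p = 0.052 and 0.19), and had less Itpr1. The median over the members was 1.27 and that over all genes tested -0.18.

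Batch was partly confounded with cell type, so the comparison was repeated within each batch. Batch 2 held 10 libraries, 3 of inhibitory interneurons, 3 of microglia and 1 of each other cell type. Those single libraries repeat replicates also in batch 1, so the spread came from inhibitory interneurons and microglia alone. Within batch 2 all 9 genes called above kept their direction and stayed past 2-fold, between -4.97 (Itpr2) and 3.89 (Atp2b3). Within batch 1, where astrocytes were the only glia and the neurons lacked inhibitory interneurons, 5 members were higher and 1 lower. Atp2a2 was then at 0.45, Itpr1 at 0.75 and Atp2a3 at -0.78, all with an adjusted p under the threshold but under 2-fold. Against astrocytes alone, Atp2a2 was higher by 1.16 in cerebellar granule cells and by 0.31 in layer V cortical neurons, and differed by 0.04 ± 0.06 in dentate gyrus granule cells (SE, log2 fold change, adjusted p = 0.53).

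**Figure D3:**
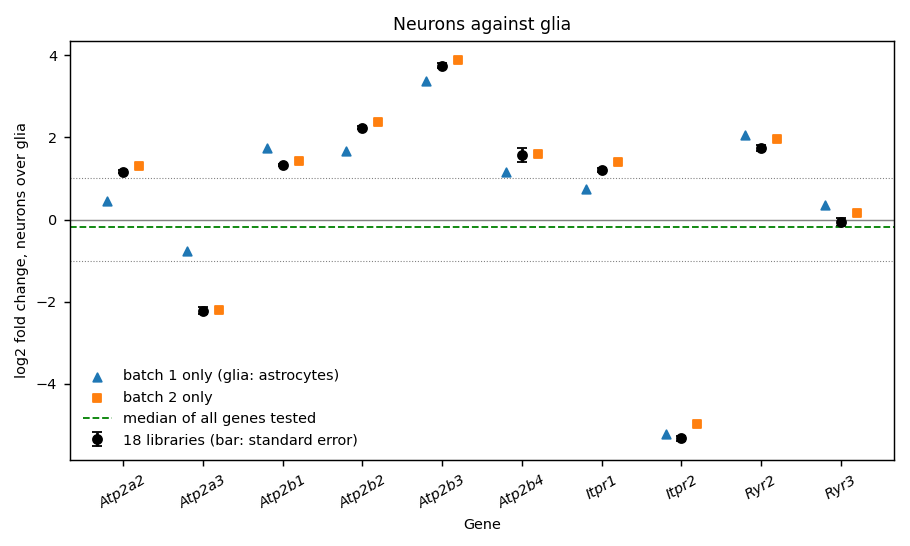
Log2 fold change of neurons over glia for each gene. Black points are the fit of 18 libraries with standard errors. Triangles are batch 1 alone, with astrocytes as the only glia and no inhibitory interneurons, and squares batch 2 alone. Dotted lines mark 2-fold, and the dashed line the median of all genes tested, -0.18. Atp2a2, Atp2a3 and Itpr1 lie inside the 2-fold lines in batch 1.

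The neuronal RNA in the glial libraries was set beside the members as a percentage of the layer V level, since these 3 cell types came from cortex. The neuronal markers Rbfox3, Snap25 and Syt1 and the excitatory marker Slc17a7 stood at 10.3% to 18.03% of the layer V level in astrocytes. Atp2b1, Atp2b2, Atp2b3, Atp2b4 and Itpr1 stood at 28.2% to 38.5% there, above all 4 markers, and Atp2a2 at 87.9%. In microglia the 4 markers lay between 3.91% and 14.01%. Atp2b2, Atp2b3, Atp2b4 and Itpr1 lay between 13.4% and 19.2%, with Atp2b2 below the highest marker, and Atp2b1 and Atp2a2 at 30.6% and 35.2%. Ryr2 stood at 64.5% in astrocytes and 66.1% in microglia. How much of the PMCA and Itpr1 level in glia came from neuronal RNA was not tested.

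**Figure D4:**
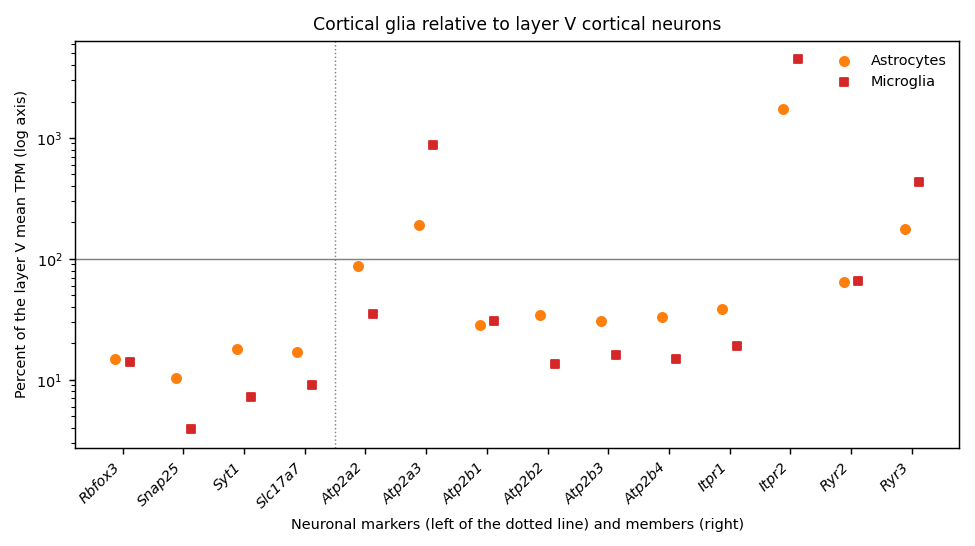
Mean TPM in astrocytes (circles) and microglia (squares) as a percentage of the mean in layer V cortical neurons, on a log axis, for 4 neuronal markers and the 10 genes (n = 3 libraries per cell type). The horizontal line marks 100%; Itpr2 lies above 1000% in both glia, and Atp2b2, Atp2b3 and Atp2b4 in microglia lie near the highest marker, at 14.01%.

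Transcript forms were compared through the share of a member's TPM held by its leading transcript, the one of highest mean TPM. For 8 members with at least 50 counts in every library, the mean of 12 neuronal libraries was set against that of 6 glial libraries by a two-sided exact permutation test over all 18564 ways to choose the glial libraries, which treats libraries of 1 cell type as independent. With the 4 neuronal and 2 glial cell types as units, an exact test has too few splits to reach 0.05. The share of Atp2a2-203 was 90.0% ± 5.46 (SD, n = 12) in neurons and 46.0% ± 6.36 (SD, n = 6) in glia, with no overlap (exact permutation p = 5.4e-05, the smallest these splits can give; adjusted p = 0.00043 over the 8). The other call was the retained-intron fragment Ryr3-205, at 24.8% in neurons and 44.6% in glia (exact permutation p = 0.010, adjusted p = 0.040). This call was lost when batch 2 libraries replaced their batch 1 counterparts (adjusted p = 0.097) and in 9 of the 18 tests that left out 1 library (adjusted p up to 0.10), whereas that of Atp2a2-203 held in all 18. The leading transcripts of Atp2b1, Atp2b2, Atp2b3, Atp2b4, Itpr1 and Ryr2 differed between -5.05 and 14.1 percentage points, with adjusted p between 0.13 and 0.75. By share of estimated counts, in which short fragments weigh less, that of Atp2b4 (Atp2b4-201) differed by 24.3 percentage points (adjusted p = 0.00022 by the same exact test) in place of 14.1, and that of Ryr3-205 by -2.26 (adjusted p = 0.0017) in place of -19.9.

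The forms at the end of the proteins are given as a description, since they were chosen after the shares of transcripts had been seen, and they rest on how kallisto divided reads among transcripts that share most of their sequence. SERCA2a (Atp2a2-202) made up 18.5% to 23.4% of Atp2a2 in astrocytes and 14.6% to 16.6% in microglia. It made up 5.54% to 6.75% in dentate gyrus granule cells, 3.98% to 5.49% in inhibitory interneurons, 1.47% to 1.56% in cerebellar granule cells and 0.717% to 0.753% in layer V cortical neurons. The 152-base SERCA2b tail shown above was thus the main end of Atp2a2 in all 6 cell types, with the larger SERCA2a part in glia. Within SERCA2b, the longer transcript Atp2a2-203 took 98.3% in layer V cortical neurons and at least 88.8% in the other neurons on average, but 52.4% ± 7.45 in astrocytes and 59.7% ± 1.34 in microglia (SD, n = 3).

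In Atp2b1 the cassette exon of site C was kept in 41.1% of the TPM that spans it in cerebellar granule cells. Dentate gyrus granule cells had the highest mean, 51.6%, with the other cell types between them. This share counts Atp2b1-209, which keeps only the first 87 bases, so it cannot be read as the share of form a. It also sets fragments of 1460 and 1404 bases against Atp2b1-201, of 7130 bases. In Atp2b2 the exon was kept in 26.2% ± 0.58 in cerebellar granule cells and 25.98% ± 0.38 in inhibitory interneurons (SD, n = 3). The share was 9.89% ± 0.57 in dentate gyrus granule cells and 9.45% ± 0.84 in layer V cortical neurons (SD, n = 3). Astrocytes and microglia lay between, at 15.3% and 15.8%. The Atp2b2 shares rest on Atp2b2-206 alone, which is annotated as a target of nonsense-mediated decay. Atp2b2-206 also counts among the transcripts from the distal start described below, so the exon and start shares are not separate measures. In Atp2b3 the exon was kept in most transcripts, from 57.3% ± 2.47 in inhibitory interneurons to 87.7% ± 0.71 in cerebellar granule cells (SD, n = 3). In Atp2b4 it was kept in 89.4% to 96.1% of transcripts on average in the 4 neuronal cell types, against 60.5% ± 5.70 in astrocytes and 72.2% ± 7.19 in microglia (SD, n = 3). All astrocyte and microglial libraries, at 54.7% to 77.7%, were below all neuronal libraries for Atp2b4, whose lowest was a layer V library at 82.6%. Form a was thus the main form of PMCA3 and PMCA4 mRNA in every cell type on average, and form b that of PMCA2.

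**Figure D5:**
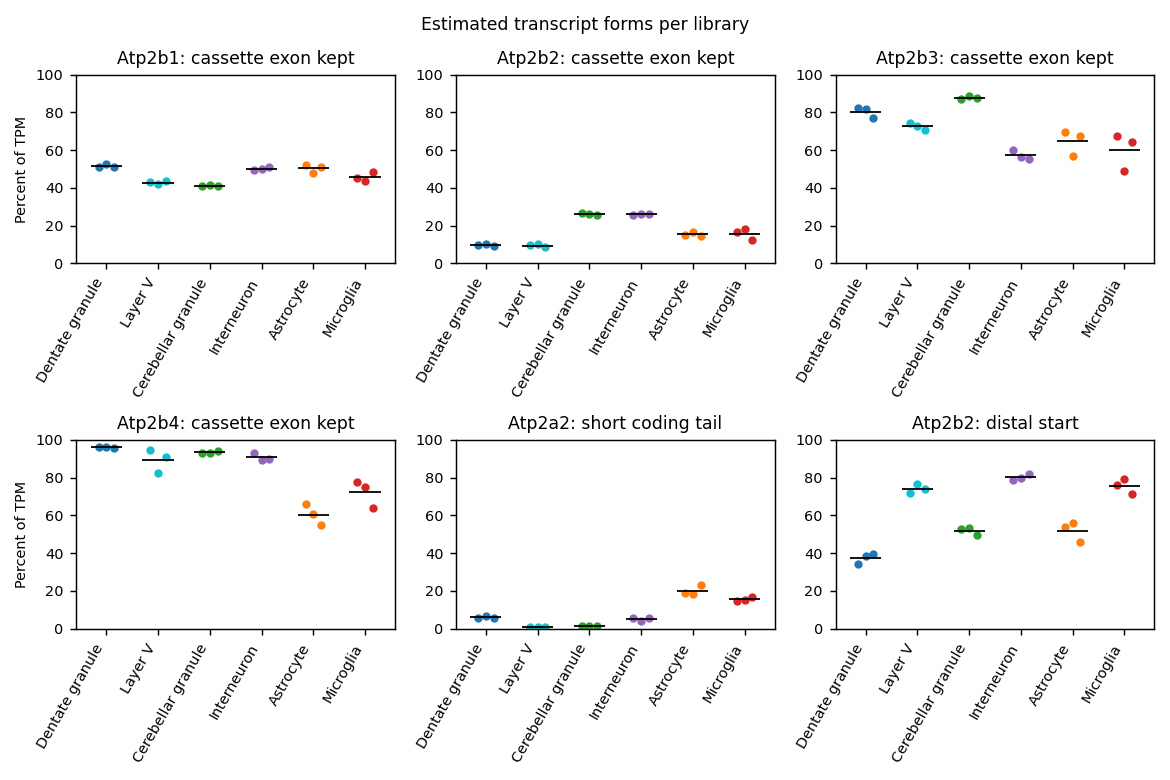
Percentage of TPM, per library (points, n = 3, line: mean), held by transcripts that keep the site C exon of each PMCA gene, by the SERCA2a transcript of Atp2a2, and by transcripts from the distal start of Atp2b2. The site C exon of Atp2b4 lies above 80% in neurons and below 80% in glia, and SERCA2a is highest in astrocytes.

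Atp2b2 also has alternative first exons, and the cell types differed in the start used. Transcripts from the distal start (Atp2b2-203 and Atp2b2-206, starts at chr6:114042026 and chr6:114042015) made up 80.3% ± 1.59 (SD, n = 3) of the level in inhibitory interneurons, 75.6% ± 3.90 in microglia and 74.2% ± 2.51 in layer V cortical neurons. They made up 52.0% ± 5.13 in astrocytes and 51.9% ± 2.12 in cerebellar granule cells, and least in dentate gyrus granule cells, at 37.3% ± 2.88. The proximal start (Atp2b2-201, at chr6:113891539) took most of the rest, with 61.0% ± 2.51 in dentate gyrus granule cells and 18.6% ± 1.49 in inhibitory interneurons, and a middle start held at most 8.11% in any library. Atp2b2-201 and Atp2b2-203 share a coding length of 3594 bases but also differ in their 3′ ends, so the shares cannot be put down to the start alone. The windows around the starts, from 250 bases before to 50 after, are shown for the distal start (chr6:114042031-114042330) and the proximal start (chr6:113891490-113891789), both on the - strand of GRCm38.p6 with bases from RefSeq. The distal window is set on the RefSeq start (chr6:114042080), 54 bases before that of Atp2b2-203, and ends just before the distal starts named above, so it does not cover them. Capitals mark GC boxes, GGGCGG or CCGCCC on the strand shown.
Atp2b2 distal: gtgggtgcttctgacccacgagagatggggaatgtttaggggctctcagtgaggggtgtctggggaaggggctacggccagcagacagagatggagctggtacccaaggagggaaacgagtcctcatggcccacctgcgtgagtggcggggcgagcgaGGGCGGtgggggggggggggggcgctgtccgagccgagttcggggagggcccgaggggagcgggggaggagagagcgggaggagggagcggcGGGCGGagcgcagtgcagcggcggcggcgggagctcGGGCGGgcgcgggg
Atp2b2 proximal: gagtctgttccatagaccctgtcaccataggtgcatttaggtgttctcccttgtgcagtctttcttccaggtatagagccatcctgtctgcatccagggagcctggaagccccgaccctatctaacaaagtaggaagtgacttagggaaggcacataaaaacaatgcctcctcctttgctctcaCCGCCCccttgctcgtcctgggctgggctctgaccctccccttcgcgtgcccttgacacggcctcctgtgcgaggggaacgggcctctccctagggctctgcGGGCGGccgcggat

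The distal window had 3 GC boxes, 72.7% G and C and 27 CG dinucleotides, and the proximal one 2 GC boxes, 58.7% G and C and 12 CG dinucleotides. The middle window had no GC box, 54.0% G and C and 8 CG dinucleotides. A GC box on either strand was found in 35.7% of the 32851 promoter windows of RefSeq, whose medians were 52.7% G and C and 7 CG dinucleotides. None of the 3 held TATAAA or TTTATA, which 13.6% of all windows did.

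Genes whose levels followed each member most closely were found by Pearson's r of log2(TPM + 1) over the 18 libraries, among 12831 protein-coding genes; the libraries fall into 6 cell types, so r mainly compares 6 levels and no test was made. Among the genes closest to Atp2b3 was Kcna1 (r = 1.00), which encodes a voltage-gated potassium channel. Itpr2 ran closest to the interferon-related genes Trim25 (r = 1.00) and H2-K1 (r = 0.99), and Atp2b2 to Slitrk1 (r = 1.00) and Otud7a (r = 0.99). Atp2a2 was most like Gpr137c and Ywhaq (both r = 0.99), Ryr2 most like Atp8a1 and Arid1b (both r = 0.99), Itpr1 most like Arf3 and Sprn (both r = 0.98) and Atp2b1 most like Pop5 and Klhl3 (both r = 0.98). The closest genes to Atp2a3 were Rnf130 and Cebpg (both r = 0.98), to Atp2b4 Schip1 and Cnksr2 (r = 0.97 and 0.96) and to Ryr3 Srrm2 and Anks3 (r = 0.93 and 0.92). Among the members themselves the closest pair was Atp2b2 with Atp2b3 (r = 0.93) and the most opposed Atp2b2 with Itpr2 (r = -0.98).

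Partners of these pumps and channels were listed by role, and 77 of 78 genes with a symbol in the files passed the filter on low counts. As log2 fold changes of neurons over glia with the same calls as above, 23 were higher, 23 lower and 31 not called, with a median log2 fold change of -0.34 against -0.18 over all genes. These counts stand beside 15.9% of all genes higher in neurons and 30.3% lower. Of the partners of the PMCA pumps, 4 of 5 were higher in neurons and none lower, with a median of 1.76. They included Calm2 (1.72 ± 0.04 SE), which had the highest level of the list, and Calm3, both genes of the calmodulin that binds the PMCA tail. The exception was Bsg (basigin), a PMCA subunit, at -0.31 ± 0.03 SE. Of the regulators of SERCA, 1 of 6 tested was higher and 3 lower. Sln (sarcolipin, an inhibitory peptide) was at 2.29 ± 0.67 SE and Pln (phospholamban) at -2.08 ± 0.40 SE, both with mean levels under 4 TPM in every cell type. Among neurons, Sln had a mean of 3.23 TPM in inhibitory interneurons but at most 0.138 TPM in the other cell types. In cerebellar granule cells it was at 0.0248 TPM, below the 0.0429 TPM of astrocytes. Tmbim6, a channel-like protein of the reticulum, was at -2.001 ± 0.03 SE.

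Of 12 partners of inositol trisphosphate receptors, 2 were higher in neurons, a share near the 15.9% of all genes, and 6 lower, against 30.3% of all genes (median -0.92). Homer1, which tethers the receptor to glutamate receptors, was the highest of them at 1.17 ± 0.07 SE, and Itpripl2, a receptor-interacting protein homologue, the lowest at -5.53 ± 0.08 SE. Ahcyl1 (IRBIT), which is displaced from the receptor by inositol trisphosphate, had the highest level, 726 TPM in astrocytes against 83.7 to 207 TPM in the other cell types. Of 12 partners of ryanodine receptors, 5 were higher and 5 lower, beside the same 15.9% and 30.3% (median -0.20). Jph1, a junctophilin that holds the reticulum to the plasma membrane, was at 3.06 ± 0.05 SE, with 57.6 TPM in dentate gyrus granule cells; Fkbp1a, the calstabin of the channel complex, had the highest level of the list and was at 1.55 ± 0.04 SE. S100a1, a calcium sensor, was at -5.66 ± 0.07 SE, with 781 TPM in astrocytes.

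Store-operated entry, which refills the reticulum, was mixed, with 2 of 6 genes higher and 2 lower, beside 15.9% and 30.3% of all genes. The store sensor Stim2 was at 1.69 ± 0.04 SE and the channel subunit Orai1 at -3.31 ± 0.06 SE, with 77.2 TPM in microglia against 2.27 to 8.45 TPM in neurons, while Saraf, an inhibitor of this entry, had the highest level and was at -0.96 ± 0.03 SE. Of the sodium-calcium exchangers, which export calcium beside the PMCA pumps, 4 of 8 were higher and 1 lower (15.9% and 30.3% of all genes; median 1.11). Slc8a2, the leading exchanger, was at 2.49 ± 0.04 SE, and the mitochondrial exchanger Slc8b1 at -5.48 ± 0.12 SE, with means of 0.211 to 0.611 TPM in neurons. All 5 calcium-binding proteins of the reticulum had an adjusted p of at most 2.6e-05 in edgeR but stayed under 2-fold. Hspa5, Calr and Pdia3 were at -0.56, -0.61 and -0.84, all 3 highest in microglia by mean TPM. Of 7 genes of mitochondrial uptake, 2 were higher and 1 lower (15.9% and 30.3% of all genes), with Micu3, a gatekeeper enriched in brain, at 3.29 ± 0.05 SE, its relative Micu2 at -1.36 ± 0.05 SE and the uniporter subunit Smdt1, the most abundant, at -0.52 ± 0.04 SE.

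Of 11 genes that make or remove inositol trisphosphate, 3 were higher, beside 15.9% of all genes, and 4 lower, a share near the 30.3% of all genes. The phospholipase Plcb4 was at 1.75 ± 0.09 SE, with 362 TPM in cerebellar granule cells, the neurons in which Itpr1 was low, but 3.01 TPM in dentate gyrus granule cells, under the 12.8 TPM of astrocytes and the 10.4 TPM of microglia, and Plcg2, an immune-cell phospholipase, at -5.56 ± 0.08 SE, with 96.5 TPM in microglia. Itpka, the kinase that removes inositol trisphosphate, had the highest mean level of the list; it was at 329 TPM in dentate gyrus granule cells and 257 TPM in layer V cortical neurons, the neurons highest in Itpr1, and at 1.19 TPM in cerebellar granule cells, with a log2 fold change of 0.12 ± 0.09 SE between neurons and glia (adjusted p = 0.23). Of 5 further members of the pump and channel families 1, Itpr3, was lower in neurons (-2.08 ± 0.14 SE) and the others were not called. Atp2c1, the calcium pump of the Golgi apparatus, was the most abundant and was at -0.45 ± 0.03 SE.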

How the data were processed

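Per the submitters' processing notes and the study's methods, reads of anti-HA pulldowns (Kapa Stranded mRNA kit) passed through cutadapt 3.5 and were assigned to GENCODE M24 transcripts (GRCm38) by kallisto 0.46.2. For each library the authors deposited raw estimated counts per transcript, and the authors' TPM beside them. Here both were summed per gene identifier. Estimated counts were rounded to whole numbers and fitted in 1 model of 18 libraries (filterByExpr by cell type, TMM, robust quasi-likelihood test of edgeR 4.0.16 in R 4.3.3), with Benjamini-Hochberg adjustment over all 20524 genes tested; genes were called at 0.05 and 2-fold. The authors' test, sleuth, was not run. DESeq2 1.42.0 and limma 3.58.1 served as alternatives, with Python 3.11.15, numpy 2.4.6, pandas 2.3.3, scipy 1.17.1 and matplotlib 3.10.9 for other steps. On simulated counts the neurons against glia test recovered 100 of 100 genes changed by 1.5 on the log2 scale and 100 of 100 changed by 2.5, with 2 false calls among 19292 genes.

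All 92 member transcripts had the same identifier and length in GENCODE M21, from which coordinates were taken. Named genes are all members, the 2 genes most like each, and, per partner list, those of highest mean TPM and of highest and lowest neurons against glia log2 fold change; Calm3, Atp2a1 and Ryr1 were named beyond this rule after their values were seen, as were markers given beside results. Some genes that the rule names are not reported here. The members and lists were chosen with earlier results of these data known. Cassette, tail and start site shares were added after transcript shares were seen. Whether quantification used strand is not given in the sources used here. The study's methods call the 3 libraries of a cell type biological replicates. Depth ranged from 38270477 to 97992957 estimated counts per library.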

Additional observations from a re-analysis of the deposited data

How the results depend on the processing

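Over the settings other than leaving out a library, 702 of 763 single values kept their direction and their side of the threshold (20 moved past it, 18 fell short of it, 17 changed sign and 6 levels moved by more than the replicate spread), as did 91 of 96 counts within 1.5 times. Without 1 library, 1221 of 1260 single values and 171 of 180 counts did so.

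Neurons against glia, Ryr3 turned positive within batch 1 (0.36) and batch 2 (0.15), with 22 libraries and batch as a term (0.0156), without dentate gyrus granule cell replicate 2 (0.0239) and without astrocyte replicate 1 (0.0852, the highest, with -0.0953 the lowest). With limma on log2(TPM + 1), Atp2a2 in dentate gyrus granule cells was at 0.0407, Ryr3 in cerebellar granule cells at -0.17, Itpr1 in inhibitory interneurons at 0.25 and Atp2a3 in astrocytes at -0.0449, and the members called fell to 2 in layer V cortical neurons and 1 in inhibitory interneurons. With an effective length offset, Ryr3 in cerebellar granule cells was at -0.25, Itpr1 in inhibitory interneurons at 0.0308 and Atp2a2 in astrocytes at 0.0241. Within batch 2, Atp2a2 in dentate gyrus granule cells was at 0.0323, and within batch 1 only 1 member was lower in neurons. On CPM, the log2 ratio of the highest cell type over the next turned to -0.81 for Atp2b4, -0.0759 for Itpr1 and -0.30 for Ryr3. It was -0.62 for Ryr3 over protein-coding transcripts, and -0.91 for Atp2b4 without its single-exon transcript, an alternative chosen after seeing the data. By share of estimated counts, the Ryr2 leading transcript was at -0.32 percentage points, and that of Atp2b4 at 24.3 (adjusted p = 0.00022 by the exact permutation test, called). Leading transcript calls fell to 1 with batch 2 libraries and to 0 of 6 members tested over protein-coding transcripts, and ranged from 1 to 2 without 1 library. Apart from that of the single-exon transcript, the cause of these changes was not tested. Of all genes called between neurons and glia, 34.4% were higher in neurons in the main setting and 49.2% with limma on log2(TPM + 1), which moved the median of all genes from -0.18 to 0.05.

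With the replicate number as a block, 7 members were higher and 2 lower in neurons, and no other count of members changed. Same-numbered libraries of different cell types deviated together only weakly (median r 0.04, from -0.10 to 0.11, over 45 pairs), so the numbers were not taken to pair them. Depth limits Itpr2 and Atp2a3 in neurons, with as few as 42 and 32 counts in a library.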
